A study of Homo sapiens with 18 samples.

Results

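The genes described here are 34 genes that mark blood lineages or acute leukaemia, followed in a kidney line that is not a blood cell. They were taken by symbol from a table of ATAC-seq counts that holds 54425 genes, and all 34 were present. The list was made to ask whether any blood gene opened when fusion genes of the t(4;11) translocation were present in HEK293T cells, a human embryonic kidney line. HEK293T cells carried an inducible AF4-MLL construct (AF4-MLL cells), an inducible MLL-AF4 construct (MLL-AF4 cells), or MLL-AF4 in constitutive form plus an inducible AF4-MLL (co-expression cells). Doxycycline at 1 µg/ml switched the inducible constructs on for 48 h, and each setting was sampled on day 3 and again on day 28, with 3 replicates per group and 18 libraries in all. The stable cells were selected with drugs as a population, the AF4-MLL plasmid of the co-expression cells was transient and visible in fewer cells with time, and no library of cells without a fusion construct was analysed here. Settings could therefore be compared with each other and days with each other, but no group stands for cells without a fusion.

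MLL (the gene KMT2A) is a histone methyltransferase that keeps promoters of developmental genes active, and AF4 (AFF1) belongs to a complex that releases paused RNA polymerase. Their exchange in t(4;11) gives a leukaemia of early B-cell precursors that often also shows myeloid antigens. In blood, factors such as TAL1, LMO2, LYL1 and GATA2 act in stem cells, SPI1 and the CEBP factors direct myeloid cells, PAX5, EBF1 and IKZF1 direct lymphoid cells, and the surface proteins and enzymes of the list are genes that these factors act on. ATAC-seq counts come from a transposase that inserts into accessible DNA. A count over a gene measures accessible sites in the counted region and not the RNA of the gene, and in bulk libraries more cells with an open site and a wider opening in each cell cannot be told apart.

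The libraries held from 442159 to 3539937 counts (median 1254820), of which between 284374 and 895319 were nuclear. Mitochondrial genes took 32.7% to 45.6% of the counts on day 3 and 63.6% to 68.5% on day 28. All comparisons below therefore used TMM scaling, which sets the bulk of the genes level between libraries, or nuclear counts. As a check of the labels, KMT2A, of which each construct carries a part, was higher in AF4-MLL than in MLL-AF4 cells by 1.39 ± 0.17 (log2 difference ± SE) on day 3 and by 1.06 ± 0.13 on day 28 (adjusted p 1.71e-10 and 7.54e-10, edgeR quasi-likelihood test). AFF1, of which each construct also carries a part, did not tell these settings apart (0.035 ± 0.16 and 0.036 ± 0.15, adjusted p 0.97 and 0.98). On each day KMT2A was lower with co-expression than with AF4-MLL alone (-0.83 ± 0.14 and -0.45 ± 0.12, adjusted p 9.06e-06 and 0.029). Against MLL-AF4 cells it was higher with co-expression by 0.56 ± 0.19 on day 3, which did not pass the test (adjusted p 0.088). On day 28 it was higher than in MLL-AF4 cells by 0.62 ± 0.15, which passed (adjusted p 0.0072). The difference of KMT2A over time under co-expression, 0.39 ± 0.14, did not pass the test (adjusted p 0.23). The 34 blood genes together received 314 to 891 counts per library, and a single one had a median of 12 counts. That number sets the precision of everything that follows.

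Reads over the blood genes were low but not absent, and no member was at 0 in every library. Their counts made up 0.0964% to 0.118% of the nuclear counts of a library. By group the share was 0.106% ± 0.00492 (mean ± SD, n = 3 in each group) in AF4-MLL cells on day 3 and 0.103% ± 0.00180 on day 28. For MLL-AF4 it was 0.113% ± 0.00385 on day 3 and 0.104% ± 0.00374 on day 28, and for co-expression 0.0992% ± 0.00260 and 0.101% ± 0.00362. The 3 MLL-AF4 libraries of day 3, at 0.110% to 0.118%, lay above all 3 co-expression libraries of day 3, at 0.0964% to 0.102%. Within each other setting the ranges of both days overlapped, whereas in MLL-AF4 cells all day 28 libraries (0.101% to 0.108%) lay below those of day 3.

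To place a gene among genes of similar size, its mean level over the 18 libraries was ranked among the protein-coding genes of the same span class, 1 of 5 classes of equal size, since the median count rose from 5.89 in the class of shortest genes to 22.3 in that of the longest. The 34 members had a median percentile of 34.8, and 12 of them lay above the 50th percentile. Olfactory receptor genes, which stand for closed chromatin in a kidney line, had a median percentile of 12.8 (377 genes). Genes that every cell uses stood at 88.1 (20 genes), genes of HEK293T cells and of the kidney lineage at 59.5 (17 genes) and genes of other tissues such as liver, muscle and brain at 38.8 (24 genes). A list of 65 further blood genes stood at 30.1. On this scale the blood genes lay between the olfactory receptor genes and the genes of the kidney lineage, close to genes of unrelated tissues. Ranked per kb of gene span among all protein-coding genes, the order was another. There the members had a median percentile of 29.5, below the olfactory receptor genes (46.7) and the genes of other tissues (50.7). The kidney lineage genes stood at 79.1 per kb. The place of the members relative to closed chromatin thus depended on the scale, and no test was attached to either order.

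**Figure D1:**
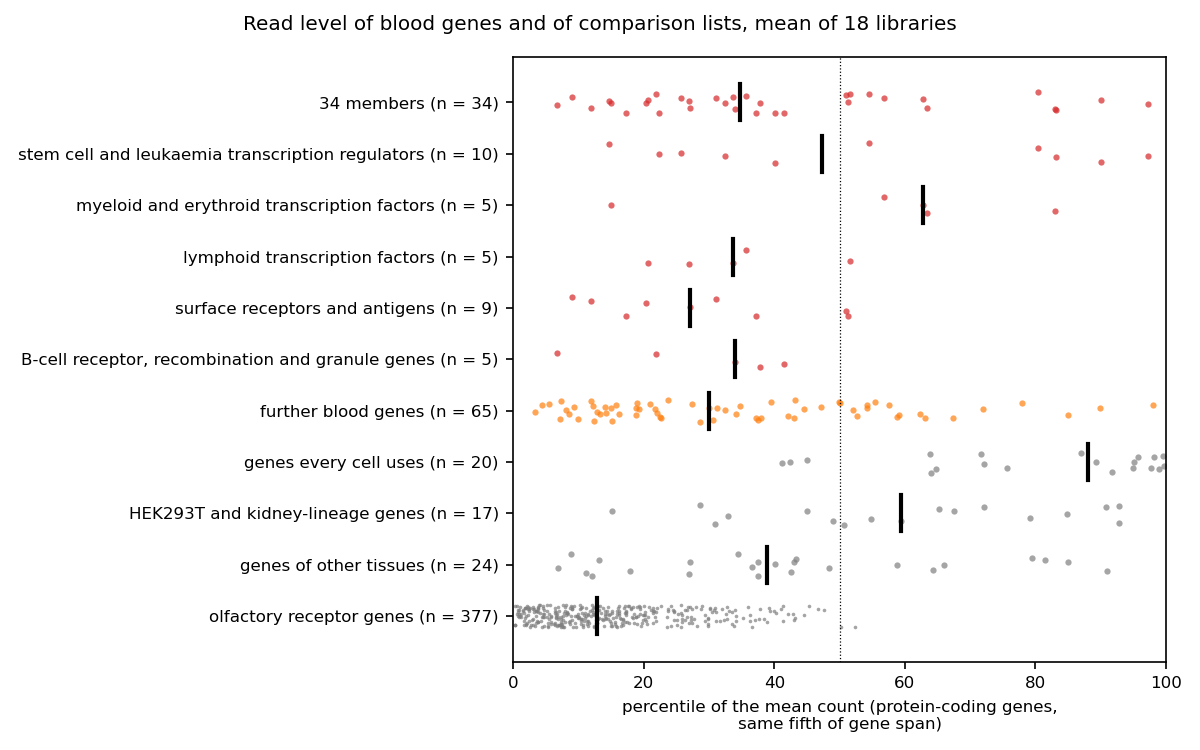
Percentile of the mean count of each gene (x axis, 0 to 100, mean of 18 libraries) among protein-coding genes of the same class of gene span (5 classes), by list (y axis). Points are genes and black bars are medians, with the 34 blood genes and their 5 role groups in red, the 65 further blood genes in orange and the comparison lists in grey. The bar of the 34 genes sits at 34.8, that of the olfactory receptor genes at 12.8 and that of the genes every cell uses at 88.1.

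Among the members the percentile ran from 6.72 for DNTT, the template-independent polymerase of lymphocyte receptor rearrangement, to 97.2 for JMJD1C, a chromatin regulator of the histone demethylase family. JMJD1C is also active outside blood, and so are MEF2C (90.1), GATA2 (83.2), CEBPB (83.0) and ZNF521 (80.3), which with it made up the 5 members above the 75th percentile. Of the 10 members below the 25th percentile, CD33 (8.997), FLT3 (11.9), ERG (14.6) and GATA1 (14.99) followed DNTT most closely. By role, the median percentile was 62.8 for the 5 myeloid and erythroid factors, 47.3 for the 10 stem cell and leukaemia regulators, 33.9 for the 5 B-cell receptor, recombination and granule genes, 33.6 for the 5 lymphoid factors and 27.1 for the 9 surface receptors and antigens.

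In nuclear CPM (counts relative to library size, from nuclear counts alone) per kb of gene span, the highest levels were those of CEBPB (27.8 ± 7.94, mean ± SD over 18 libraries), CEBPA (9.67 ± 3.21) and GATA2 (5.06 ± 1.10). The lowest were those of PAX5 (0.102 ± 0.0346), EBF1 (0.0762 ± 0.0293) and ERG (0.0525 ± 0.0152). The order by this scale runs largely with span, from 2.11 kb for CEBPB to 404 kb for EBF1, because counts rose far less than span. Over the 21 members with a promoter sequence below, Spearman's rho between span and level per kb was -0.78. Neighbours in the order were often closer than their spread, as for LYL1 (3.97 ± 1.78) beside GATA2 and for SPI1 (1.98) beside IRF8 (1.73).

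Promoter sequences are shown for the 3 members with the highest level per kb, for PAX5 among the lowest, and for LYL1, which differed between settings below. Each run is the 250 bases before the outer start of the gene's span in RefSeq (assembly GRCh38.p14), read 5′ to 3′ on the gene's strand, with every CpG dinucleotide in capitals.
CEBPB (chr20:50190333-50190582, plus strand): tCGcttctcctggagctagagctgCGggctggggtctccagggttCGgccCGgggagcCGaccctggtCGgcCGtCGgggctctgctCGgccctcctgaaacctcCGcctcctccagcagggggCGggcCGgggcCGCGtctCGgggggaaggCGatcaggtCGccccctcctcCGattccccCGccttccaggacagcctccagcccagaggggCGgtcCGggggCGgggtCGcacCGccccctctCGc
CEBPA (chr19:33302535-33302784, minus strand): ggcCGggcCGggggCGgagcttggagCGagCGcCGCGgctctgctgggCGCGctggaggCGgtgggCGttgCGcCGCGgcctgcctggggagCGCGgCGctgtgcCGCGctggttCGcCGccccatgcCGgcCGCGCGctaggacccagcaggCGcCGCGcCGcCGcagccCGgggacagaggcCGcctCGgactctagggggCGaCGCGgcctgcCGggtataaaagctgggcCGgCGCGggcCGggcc
GATA2 (chr3:128493202-128493451, minus strand): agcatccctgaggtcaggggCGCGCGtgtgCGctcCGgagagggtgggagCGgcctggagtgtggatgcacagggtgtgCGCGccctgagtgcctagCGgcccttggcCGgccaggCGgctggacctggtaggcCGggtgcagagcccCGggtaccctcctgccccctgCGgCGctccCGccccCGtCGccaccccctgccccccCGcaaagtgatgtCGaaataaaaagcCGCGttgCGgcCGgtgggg
PAX5 (chr9:37034269-37034518, minus strand): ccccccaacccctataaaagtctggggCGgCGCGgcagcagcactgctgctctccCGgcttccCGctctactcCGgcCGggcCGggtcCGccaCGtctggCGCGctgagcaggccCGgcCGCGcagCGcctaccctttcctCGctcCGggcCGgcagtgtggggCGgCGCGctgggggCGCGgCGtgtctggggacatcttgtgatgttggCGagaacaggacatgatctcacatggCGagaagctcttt
LYL1 (chr19:13102859-13103108, minus strand): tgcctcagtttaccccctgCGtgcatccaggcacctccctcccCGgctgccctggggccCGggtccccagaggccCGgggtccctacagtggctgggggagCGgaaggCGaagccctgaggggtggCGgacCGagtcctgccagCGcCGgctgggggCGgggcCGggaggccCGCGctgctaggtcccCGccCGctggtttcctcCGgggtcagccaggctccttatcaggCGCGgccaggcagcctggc

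The promoters of CEBPB, CEBPA and GATA2 hold 25, 41 and 24 CpG dinucleotides. At the other end of the order per kb, among members with a promoter sequence, the 3 lowest differed. PAX5 holds 27 and FLT3 26, whereas DNTT holds 3. LYL1 has 19. Of the 21 members whose promoter sequence ends at that start, 12 were CpG-rich, defined as an observed to expected ratio of at least 0.6, which is 57.1% of them beside 65.1% of 12814 protein-coding genes. The median level per kb was 0.420 in the CpG-rich members and 0.487 in the others, whereas over all genes it was 1.29 and 0.689. Over the 21 members, Spearman's rho between the CpG ratio and the level per kb was 0.083. With the level in nuclear CPM, not scaled by span, it was 0.37, and both are given as a description only. Of the letters searched on both strands, the GATA-type AGATAA was in 2 promoters, those of DNTT and TAL1 (9.52% against 6.91% of all promoters), and the ETS-type CCGGAA was in that of TAL1 alone (4.76% against 19.8%). The E-box CAGCTG was in 3, those of CSF1R, JMJD1C and RAG1 (14.3% against 13.3%), and TATAAA was in 3, those of CEBPA, IRF4 and PAX5 (14.3% against 9.33%). LMO2, FLI1, ERG, ZNF521, SPI1, IRF8, IKZF1, EBF1, PTPRC, CD33, CSPG4, CD79B and MPO are the members without a printed or searched promoter.

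Of the 34 members 27 had enough counts to be tested. A count of called members here is of those 27, since TAL1, GATA1, FLT3, CD33, CD79A, CD79B and DNTT did not pass the filter on low counts. The fit was edgeR's quasi-likelihood test over all 17660 genes that passed the filter, with Benjamini-Hochberg adjustment over all of them, and a gene was called at an adjusted p under 0.05. In 9 comparisons between 2 groups this gave 243 member tests, of which 3 were called, each with a lower value, beside 0.606% of all gene tests called lower and 0.532% called higher. They were ZNF521, LYL1 and PTPRC, each in a different comparison, and no member was called higher in the order of subtraction used. That order was day 28 minus day 3, co-expression minus a single construct, and AF4-MLL minus MLL-AF4. Read the other way, ZNF521 was higher on day 3 than on day 28 in MLL-AF4 cells. LYL1 was higher in MLL-AF4 than in co-expression cells on day 3, and PTPRC was higher in AF4-MLL than in co-expression cells on day 28. At an unadjusted p under 0.05 there were 41, beside 11.5% of all gene tests. Of the 243 intervals (95%) of the log2 difference, 202 ended below 1, as did 86.7% of all. In the other member tests a difference of 1 lay within the interval. That count covers the upper side only and says nothing of differences below -1. For day 28 minus day 3 in AF4-MLL cells, 22 of 27 intervals ended below 1 but 18 lay wholly between -1 and 1. In MLL-AF4 cells these numbers were 21 and 13.

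**Figure D2:**
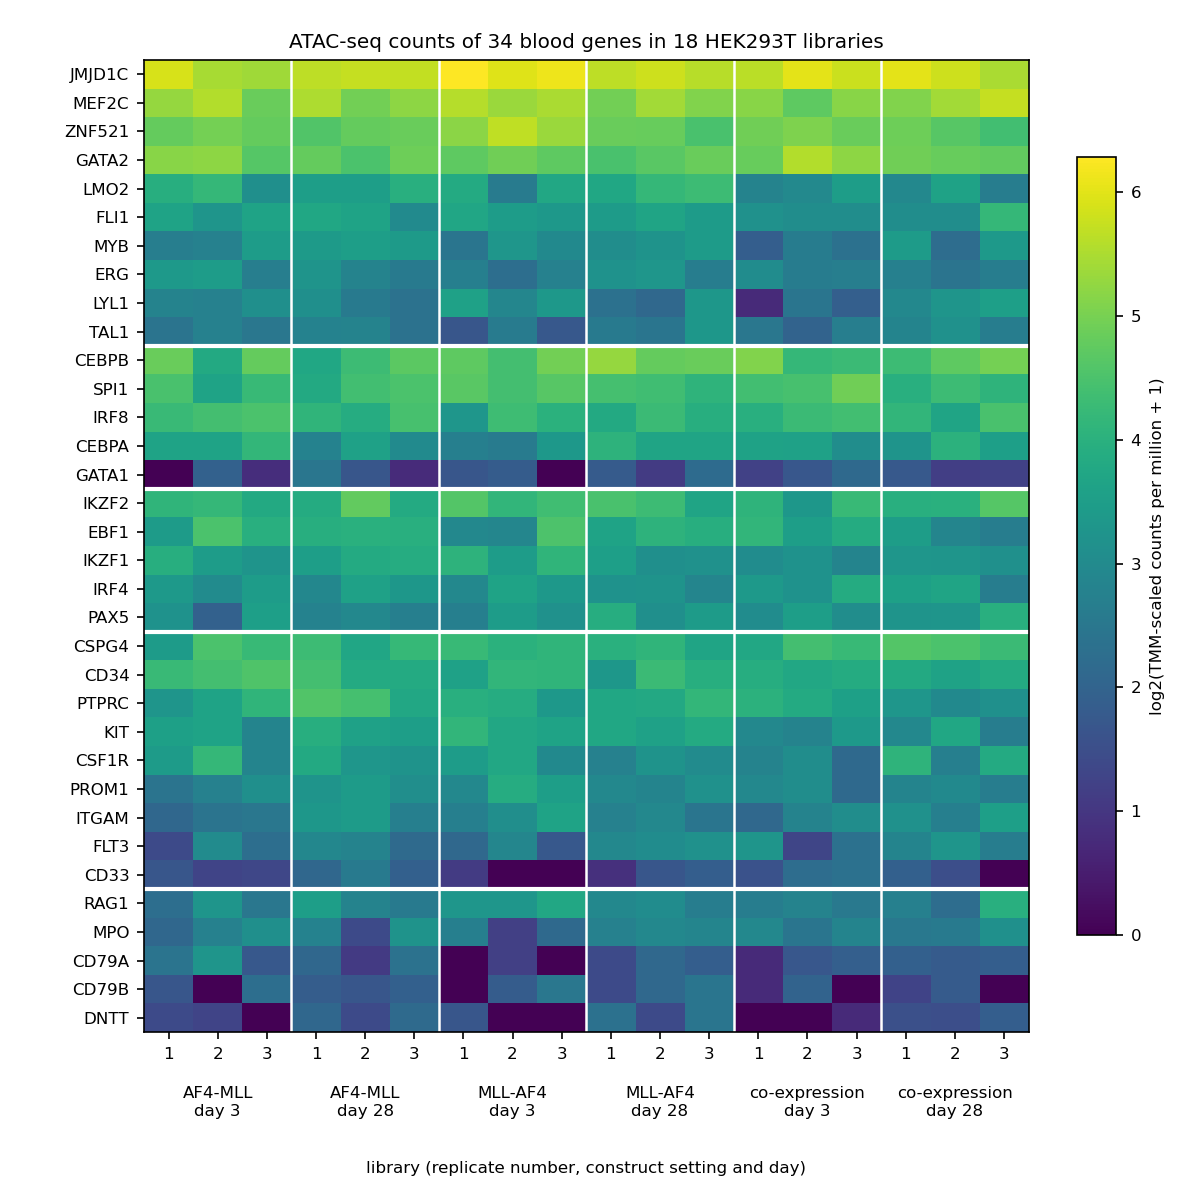
TMM-scaled CPM of the 34 genes on a log2 scale with 1 added (colour) in each of the 18 libraries (columns, by setting, day and replicate number), with genes grouped by role and ordered by mean level within a role. JMJD1C is the brightest row in most libraries, GATA1, CD33, CD79A, CD79B and DNTT are the darkest, and differences between genes are larger than those between groups.

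The first question was whether blood genes changed between day 3 and day 28. In AF4-MLL cells 0 of 27 members were called, beside 0.606% of all genes, with 3 at an unadjusted p under 0.05 in edgeR (9.29% of all genes), 2 with groups that did not overlap (14%) and 0 called by DESeq2. The members' median log2 difference was -0.00, as was that of all genes. In MLL-AF4 cells 1 of 27 was called, beside 2.87% of all genes, and 3 had an unadjusted p under 0.05 (15.8% of all genes). There the members' median was -0.17 against 0.00 for all genes, with 11 members above 0 (50.4% of all genes). In co-expression cells 0 of 27 were called, beside 0.606%, with 7 at an unadjusted p under 0.05 (9.51% of all genes) and 0 called by DESeq2. The median was 0.10 against -0.00, and 17 members were above 0 (49.8% of all genes).

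The called gene was ZNF521, a zinc finger cofactor of immature blood and neural cells. Its values in MLL-AF4 cells were 35.7, 50.7 and 39.3 CPM (TMM-scaled) on day 3 and 28.02, 27.3 and 21.5 CPM on day 28. The groups did not overlap, as was so for 5 of the 27 members and 20.4% of all genes in this comparison. ZNF521 fell by 0.68 ± 0.21 on the log2 scale (adjusted p 0.042), while the median of its 50 nearest tested neighbours on the chromosome was -0.07. In the other settings its values were 26.9, 30.4 and 26.97 CPM on day 3 and 22.8, 27.1 and 27.9 CPM on day 28 for AF4-MLL cells. In co-expression cells they were 29.3, 32.8 and 28.01 CPM and then 28.7, 24.3 and 19.9 CPM. The MLL-AF4 libraries of day 3 were thus above every other library of the series. The call did not hold when any 1 of the 6 MLL-AF4 libraries was left out, with adjusted p from 0.056 without replicate 1 of day 3 to 0.28 without replicate 2 of day 3, nor by DESeq2 (0.19).

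ITGAM, the CD11b chain of the integrin of granulocytes and monocytes, had the smallest unadjusted p in AF4-MLL cells. It stood at 3.29, 4.34 and 4.62 CPM on day 3 and at 9.12, 9.94 and 5.58 CPM on day 28 in these cells. The difference of 1.07 ± 0.44 did not pass the test (adjusted p 0.38), though the groups did not overlap. In the MLL-AF4 setting ITGAM had 5.58, 7.61 and 11.6 CPM and then 5.77, 6.69 and 4.48 CPM, and under co-expression 3.33, 5.97 and 7.51 CPM and then 7.99, 5.60 and 10.6 CPM. Those ranges overlapped. LYL1 had the smallest p in co-expression cells and its values follow.

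The next question was whether the settings differed on day 3, when the inducible constructs had been on for 48 h. Between co-expression and MLL-AF4 cells 1 of 27 members was called, beside 1.81% of all genes, and 8 had an unadjusted p under 0.05 (14.5% of all genes). The members' median difference was -0.33 against -0.00 for all genes, 11 members were above 0 (49.7% of all genes), and 7 had groups without overlap (19%). Between co-expression and AF4-MLL cells 0 of 27 were called, beside 1.28%, with 4 at an unadjusted p under 0.05 (12.3%) and 0 called by DESeq2, and the median was -0.09. Between AF4-MLL and MLL-AF4 cells 0 of 27 were called, beside 0.142%, with 5 at an unadjusted p under 0.05 (9.55%) and 0 called by DESeq2, and the median was -0.04. These 3 comparisons share libraries.

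The called gene was LYL1, a helix-loop-helix factor of blood stem cells first known from T-cell leukaemia. On day 3 its values were 11.2, 6.34 and 9.25 CPM in MLL-AF4 cells and 0.667, 4.47 and 2.73 CPM in co-expression cells, from 10, 5 and 8 counts and 1, 6 and 4 counts. Every co-expression library was below every MLL-AF4 library. LYL1 was lower in co-expression cells by a log2 difference of -1.78 ± 0.53 (adjusted p 0.049), whereas the median of its 50 neighbours was 0.27. It passed the filter on low counts only through AF4-MLL and MLL-AF4 libraries of day 3, and no co-expression library reached the filter's level. Entry of LYL1 to the test thus rested on groups where it was higher on that day, which limits the call. AF4-MLL cells had 6.03, 5.79 and 7.71 CPM on day 3, also above the co-expression cells (-1.33 ± 0.52, adjusted p 0.22). On day 28 the 3 settings overlapped, with 7.81, 4.97 and 4.19 CPM in AF4-MLL cells, 4.12, 3.35 and 8.95 CPM in MLL-AF4 cells and 6.58, 8.72 and 10.6 CPM in co-expression cells. The co-expression value of day 28 was above that of day 3 by 1.62 ± 0.48, which did not pass the test (adjusted p 0.098). The call of day 3 held without replicate 2 of the co-expression cells and was lost without any 1 of the other 5 libraries (adjusted p 0.070 to 0.23) and by DESeq2 (0.21).

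JMJD1C had the smallest p between AF4-MLL and MLL-AF4 cells on day 3. It stood at 59.2, 43.4 and 40.8 CPM in AF4-MLL cells, at 76.99, 62.2 and 69.4 CPM in MLL-AF4 cells and at 48.7, 64.1 and 53.96 CPM in co-expression cells. All 3 MLL-AF4 libraries were above all 3 AF4-MLL libraries, by a difference of -0.49 ± 0.16 for AF4-MLL minus MLL-AF4 that did not pass the test (adjusted p 0.26), with a neighbour median of -0.23. On day 28 it stood at 49.5, 52.5 and 51.6 CPM, 49.4, 54.7 and 47.4 CPM, and 64.4, 54.8 and 43.9 CPM in the same order, and the settings overlapped.

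By group mean, the MLL-AF4 cells of day 3 were highest for 10 of the 27 tested members, among them LYL1, MEF2C, JMJD1C, ZNF521, IKZF1, KIT and RAG1, beside 21.5% of all tested genes, and lowest for 4 (20.9% of all genes). Over all genes this group was both the most often highest and the most often lowest. Its libraries were shallow, with 325669 to 369823 nuclear counts and 359 to 418 member counts. Only replicate 2 of AF4-MLL on day 3 and replicate 3 of co-expression on day 28 had fewer nuclear counts. Co-expression cells of day 3 were highest for 3 members (17.9% of all genes) and lowest for 11 (16.8%). The ratio of the highest to the lowest group mean ran from 1.36 for IRF4 to 3.40 for LYL1, with a median of 1.76 beside 1.52 over all genes, and was under 2 for 19 members. The choice of the highest and lowest of 6 groups widens this ratio, and no test was made on it.

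**Figure D3:**
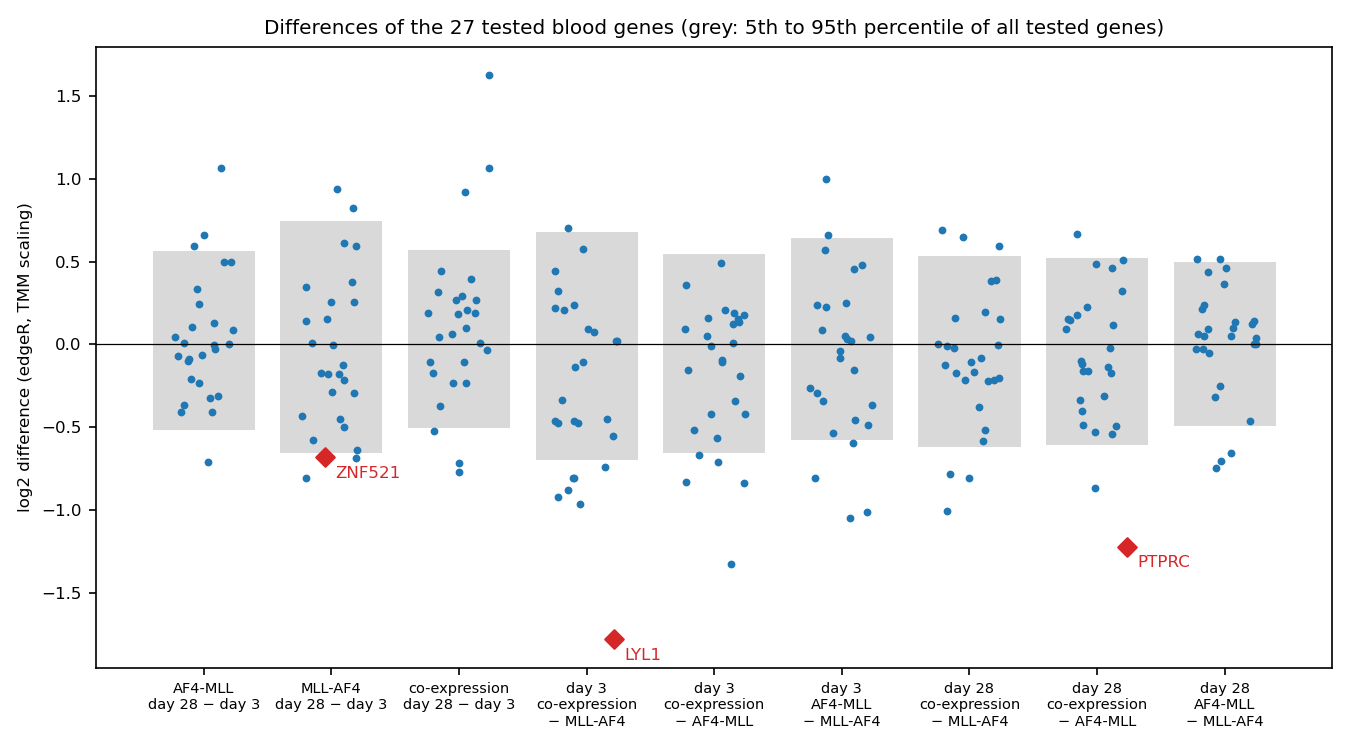
Log2 difference (y axis, edgeR with TMM scaling) of the 27 tested blood genes in the 9 comparisons between 2 groups (x axis). Blue points are genes that were not called, red diamonds are the called genes, and grey bands run from the 5th to the 95th percentile of all 17660 tested genes. The 3 called genes, at -0.68 (day 28 minus day 3), -1.78 and -1.22 (both co-expression minus a single construct), are all below 0. With the groups subtracted the other way they would lie above 0.

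The same question was put to day 28, long after doxycycline had been removed. Between co-expression and MLL-AF4 cells 0 of 27 members were called, beside 1.17% of all genes, with 5 at an unadjusted p under 0.05 (11.8%) and 0 called by DESeq2, and the median difference was -0.11. Between co-expression and AF4-MLL cells 1 of 27 was called, beside 1.69%, with 3 at an unadjusted p under 0.05 (12.7%), and the median was -0.12. Between AF4-MLL and MLL-AF4 cells 0 of 27 were called, beside 0.0793%, with 3 at an unadjusted p under 0.05 (8.26%) and 0 called by DESeq2, and the median was 0.05. The medians over all genes were 0.01, 0.01 and 0.00.

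PTPRC, which encodes the pan-leukocyte phosphatase CD45, was the called gene and had the smallest adjusted p of any member. On day 28 its values were 22.8, 20.4 and 12.6 CPM in AF4-MLL cells, 12.4, 12.8 and 17.01 CPM in MLL-AF4 cells and 8.93, 6.85 and 7.98 CPM in co-expression cells. The co-expression libraries were the lowest and did not overlap with either other setting, and in the comparison with AF4-MLL cells the groups of 5 of the 27 members and of 16.8% of all genes did not overlap. PTPRC was lower under co-expression than with AF4-MLL alone, by a log2 difference of -1.22 ± 0.29 (adjusted p 0.0063). Its 50 neighbours had a median of -0.44 and the whole chromosome -0.02. Against MLL-AF4 cells the difference was -0.78 ± 0.32 (adjusted p 0.25). On day 3 the settings overlapped, with 8.77, 11.6 and 16.2 CPM in AF4-MLL cells, 14.5, 13.95 and 9.25 CPM in MLL-AF4 cells and 15.3, 13.4 and 10.9 CPM in co-expression cells. The call did not hold when replicate 1 or replicate 2 of AF4-MLL or replicate 2 of co-expression on day 28 was left out (adjusted p 0.073, 0.057 and 0.075) and by DESeq2 (0.14).

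LMO2, a bridging protein of the stem cell factor complex, had the smallest p on day 28 between the MLL-AF4 and the co-expression setting. It stood at 6.58, 11.2 and 5.32 CPM in co-expression cells, 12.4, 17.3 and 18.8 CPM in MLL-AF4 cells and 10.4, 10.5 and 14.6 CPM in AF4-MLL cells. The first 2 groups did not overlap, and their difference of -1.01 ± 0.31 did not pass the test (adjusted p 0.079). On day 3 its values were 5.999, 6.71 and 10.2 CPM, 13.4, 5.07 and 12.7 CPM, and 14.2, 17.4 and 7.71 CPM in the same order, with overlap.

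CEBPB, a leucine zipper factor of myeloid cells and of stress responses in many tissues, had the smallest p between AF4-MLL and MLL-AF4 cells on day 28. Its values there were 12.4, 18.8 and 25.1 CPM in AF4-MLL cells, 37.9, 26.8 and 27.7 CPM in MLL-AF4 cells and 18.8, 25.5 and 30.6 CPM in co-expression cells. The AF4-MLL and MLL-AF4 libraries did not overlap, and the difference of -0.70 ± 0.22 did not pass the test (adjusted p 0.24). On day 3 the settings overlapped, at 27.9, 13.02 and 26.97 CPM, 25.7, 20.3 and 30.1 CPM, and 33.3, 17.2 and 18.4 CPM in the same order.

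The last question was whether the change from day 3 to day 28 differed between settings, tested as an interaction. For co-expression against MLL-AF4 cells 0 of 27 members were called, beside 0.232% of all genes. For co-expression against AF4-MLL cells 0 of 27 were called, beside 0% of all genes, and for AF4-MLL against MLL-AF4 cells 0 of 27, beside 0.317%. By edgeR 5, 5 and 6 members had an unadjusted p under 0.05 in these (9.73%, 5.05% and 9.75% of all genes), and DESeq2 also called 0 in each. The smallest p was that of LYL1 in the first (2.43 ± 0.67, adjusted p 0.082), of PTPRC in the second (-1.38 ± 0.42, adjusted p 0.81) and of CEBPA in the third (-1.65 ± 0.51, adjusted p 0.15). The intervals were wide. Wholly between -1 and 1 lay those of 5, 9 and 4 of the 27, beside 41.2%, 52.4% and 40% of all genes.

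CEBPA, the factor that commits progenitors to granulocytes, had differences of opposite sign in those 2 settings. In AF4-MLL cells it stood at 11.5, 11.6 and 16.95 CPM on day 3 and at 5.86, 11.05 and 6.98 CPM on day 28 (-0.71 ± 0.32, adjusted p 0.45). In MLL-AF4 cells it stood at 5.58, 5.07 and 9.25 CPM and then at 15.7, 11.7 and 11.6 CPM (0.94 ± 0.40, adjusted p 0.20). The days did not overlap in either setting, but neither difference nor the interaction passed the test. In co-expression cells the values were 11.3, 11.2 and 7.51 CPM and then 8.46, 15.6 and 10.6 CPM.

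**Figure D4:**
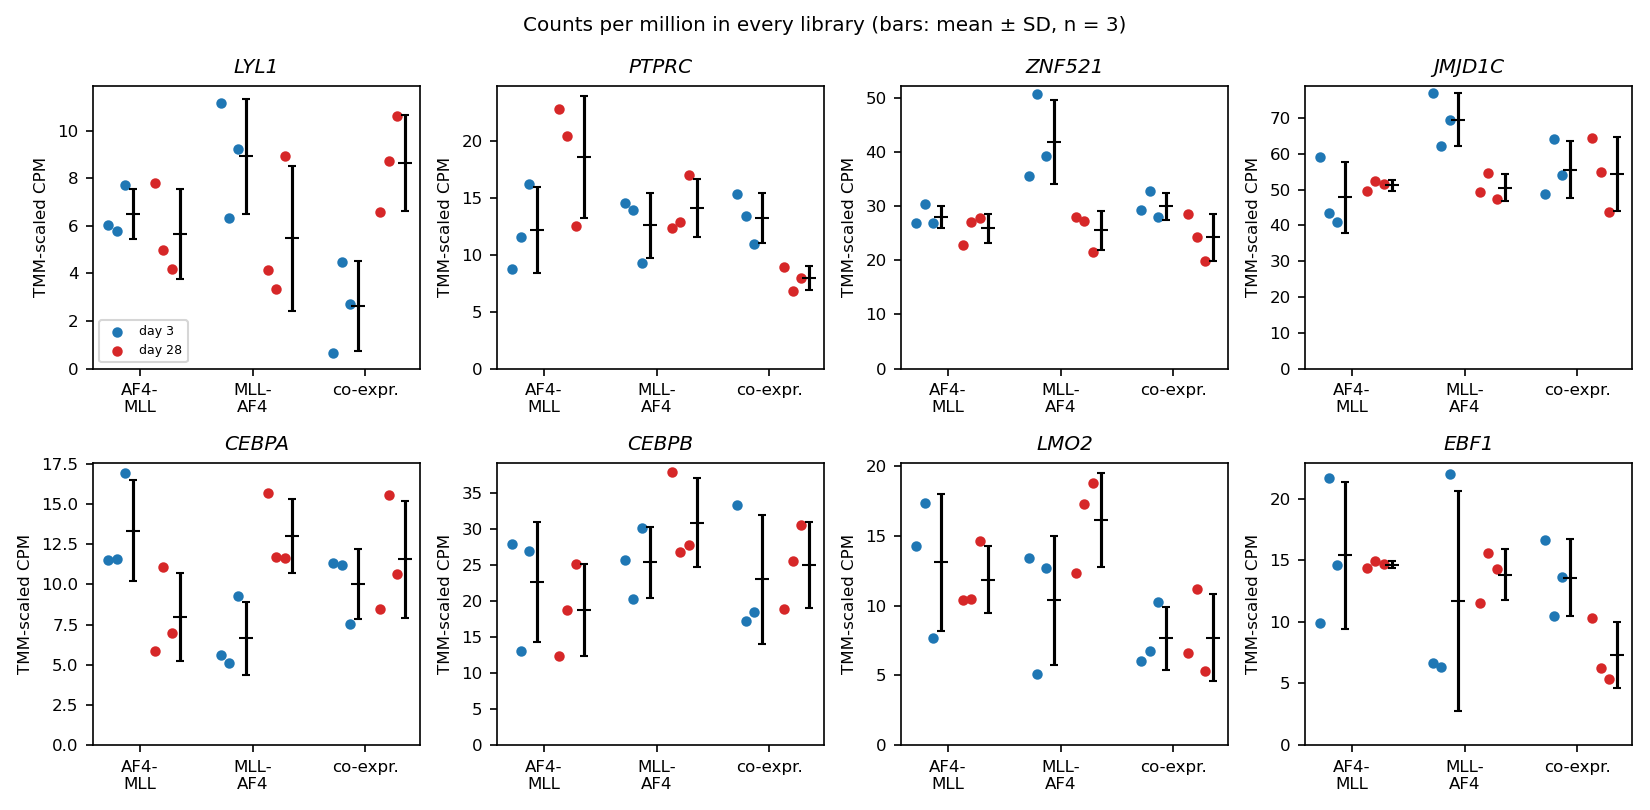
TMM-scaled CPM (y axis, starting at 0) of 8 blood genes in every library, by setting (x axis) on day 3 (blue) and day 28 (red), with the mean ± SD of 3 libraries in black. LYL1 is lowest in co-expression cells on day 3 (0.667 to 4.47 CPM), PTPRC in the same cells on day 28 (6.85 to 8.93 CPM), and ZNF521 is highest in MLL-AF4 cells on day 3 (35.7 to 50.7 CPM).

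Among the other stem cell and leukaemia regulators, GATA2, a zinc finger factor of stem cells, stood at 35.1, 36.2 and 23.9 CPM on day 3 and 26.7, 21.5 and 28.6 CPM on day 28 in AF4-MLL cells. It stood at 25.7, 29.2 and 25.4 CPM and then 21.4, 24.5 and 27.7 CPM in MLL-AF4 cells, and at 27.3, 46.2 and 36.2 CPM and then 29.1, 27.4 and 26.6 CPM in co-expression cells. The days overlapped in every setting, and GATA2 was not called in any comparison. ERG, an ETS factor of stem cells and vessels, had 3 to 17 counts per library. Its values were 9.32, 10.1 and 5.39 CPM and then 8.47, 6.08 and 4.88 CPM in AF4-MLL cells. They were 5.58, 3.81 and 5.78 CPM and then 8.24, 8.93 and 5.37 CPM in MLL-AF4 cells, and 7.33, 5.22 and 5.46 CPM and then 5.64, 4.36 and 5.32 CPM in co-expression cells. The days of ERG overlapped in every setting. The group means of MEF2C, a factor of muscle, neurons and lymphoid progenitors, ran from 31.6 to 43.4 CPM, those of MYB, a factor of proliferating progenitors, from 3.995 to 10.01 CPM, and those of FLI1, an ETS factor of megakaryocytes and vessels, from 7.66 to 10.8 CPM. TAL1, a stem cell and erythroid factor, was not tested and had 2 to 13 counts per library.

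Of the remaining myeloid and erythroid factors, SPI1, the ETS factor PU.1 that directs myeloid and B cells, had group means of 16.4 to 23.4 CPM, and IRF8, a factor of monocytes and dendritic cells, of 14.3 to 19.97 CPM. Neither was called in any comparison. GATA1, the main erythroid factor, had 0 to 7 counts per library and was not tested.

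Among the lymphoid factors IKZF2, a zinc finger factor of regulatory T cells, had the most counts. In AF4-MLL cells it stood at 16.4, 17.4 and 13.1 CPM on day 3 and 13.7, 26.5 and 13.3 CPM on day 28. MLL-AF4 cells had 23.4, 16.5 and 19.7 CPM and then 21.4, 18.97 and 11.6 CPM, and co-expression cells 15.998, 8.95 and 17.8 CPM and then 14.6, 14.9 and 23.9 CPM. Each group overlapped with its counterpart on the other day. EBF1, which with PAX5 commits progenitors to the B lineage, stood at 9.86, 21.7 and 14.6 CPM and then 14.3, 14.9 and 14.6 CPM in AF4-MLL cells. It stood at 6.69, 6.34 and 21.96 CPM and then 11.5, 15.6 and 14.3 CPM in MLL-AF4 cells, and at 16.7, 10.4 and 13.7 CPM and then 10.3, 6.23 and 5.32 CPM in co-expression cells. The co-expression libraries of day 28 were below those of day 3 (-0.77 ± 0.32, adjusted p 0.36) and below the AF4-MLL libraries of day 28 (-0.87 ± 0.31, adjusted p 0.14), and neither difference passed the test.

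PAX5, the B-lineage factor, stood at 8.22, 2.89 and 10.8 CPM and then 5.86, 6.63 and 5.58 CPM in AF4-MLL cells. It stood at 5.58, 10.1 and 8.09 CPM and then 14.01, 7.81 and 9.85 CPM in MLL-AF4 cells, and at 7.33, 10.4 and 7.51 CPM and then 8.46, 8.72 and 14.6 CPM in co-expression cells. Its days overlapped in every setting. IKZF1, the lymphoid factor Ikaros, had group means of 7.23 to 13.98 CPM and IRF4, a factor of plasma cells and activated lymphocytes, of 7.62 to 10.4 CPM. No lymphoid factor was called in any comparison.

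Of the surface receptors and antigens CSPG4, the proteoglycan NG2 that marks leukaemias with MLL rearrangement and is also made by pericytes and glia, had the most counts. It stood at 9.86, 21.7 and 17.7 CPM on day 3 and 18.9, 12.2 and 17.4 CPM on day 28 in AF4-MLL cells, at 17.9, 15.2 and 16.2 CPM and then 14.8, 16.2 and 11.6 CPM in MLL-AF4 cells, and at 12.7, 20.1 and 17.8 CPM and then 23.5, 21.8 and 18.6 CPM in co-expression cells. On day 28 all co-expression libraries were above all MLL-AF4 libraries, by 0.60 ± 0.25, which did not pass the test (adjusted p 0.28), and the chromosome as a whole had a median of 0.32 there. The group means of CD34, the stem cell antigen, ran from 12.6 to 20.2 CPM, those of KIT, the stem cell factor receptor, from 7.40 to 13.7 CPM, and those of PROM1, the antigen CD133, from 5.85 to 10.4 CPM. None of these was called.

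CSF1R, the macrophage growth factor receptor, was singled out after its values were seen, because 1 library decided its result. In co-expression cells it stood at 5.999, 7.46 and 3.42 CPM on day 3 and at 15.98, 5.60 and 13.3 CPM on day 28, from 9, 10 and 5 counts and 34, 9 and 10 counts. Replicates 1 and 3 of day 28 were above all libraries of day 3, and replicate 2 was within their range. The difference of 1.06 ± 0.37 did not pass the test (adjusted p 0.21), whereas without replicate 2 of day 28 it was 1.43 and passed (adjusted p 0.044), and without replicate 1 of day 28 it was 0.54 (adjusted p 0.83). CSF1R stood at 9.86, 17.4 and 6.17 CPM and then 13.02, 8.84 and 8.37 CPM in AF4-MLL cells, and at 10.04, 12.7 and 6.94 CPM and then 5.77, 8.37 and 7.16 CPM in MLL-AF4 cells, and the days overlapped in both. FLT3, a receptor of early progenitors, had 2 to 14 counts per library and CD33, a myeloid lectin, 0 to 9 counts, and neither was tested.

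Of the B-cell receptor, recombination and granule genes RAG1, a subunit of the recombinase of lymphocyte receptor genes, had the most counts. Its values were 3.84, 8.68 and 4.62 CPM and then 10.4, 6.08 and 4.88 CPM in AF4-MLL cells. They were 8.93, 8.88 and 12.7 CPM and then 6.59, 7.25 and 5.37 CPM in MLL-AF4 cells, and 5.33, 5.97 and 4.78 CPM and then 5.64, 3.74 and 14.6 CPM in co-expression cells. On day 3 the MLL-AF4 libraries were above those of both other settings, by -0.92 ± 0.44 for co-expression minus MLL-AF4 (adjusted p 0.30) and -1.01 ± 0.46 for AF4-MLL minus MLL-AF4 (adjusted p 0.46), and neither difference passed the test. MPO, the granule peroxidase of neutrophils, had group means of 3.44 to 6.24 CPM and was not called.

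The B-cell receptor chains CD79A and CD79B had 0 to 8 and 0 to 6 counts per library, and DNTT had 0 to 5. When the filter on low counts was dropped so that all 34 members could be tested, CD79A had the smallest unadjusted p of the 7 members without a main test (0.0012, adjusted p 0.48, edgeR), with 8, 6 and 3 counts in AF4-MLL and 0, 1 and 0 counts in MLL-AF4 cells on day 3. The smallest adjusted p of any of these 7 over the 9 comparisons was 0.31, that of CD33 for day 3 co-expression against MLL-AF4. No difference was detectable in these genes at this depth.

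Beyond the 34 members, 65 other blood genes in 5 lists were followed, of which 35 could be tested. They were 12 B-cell, 16 T-cell and NK-cell, 14 myeloid, 11 erythroid and megakaryocyte and 12 pan-leukocyte genes. The only one called was ITGA2B, the platelet integrin chain CD41, in 3 of the 9 comparisons between groups and in 1 interaction. That is 3 calls in 315 tests, beside 1.14% of all gene tests in the 9 comparisons. It was lowest in the MLL-AF4 cells of day 3, at 17.9, 15.2 and 21.96 CPM, against 39.5, 26.03 and 37.8 CPM in AF4-MLL cells and 33.3, 33.6 and 36.2 CPM in co-expression cells. The differences from MLL-AF4 cells were 0.97 ± 0.24 for AF4-MLL cells (adjusted p 0.044) and 0.90 ± 0.24 for co-expression cells (adjusted p 0.020). In MLL-AF4 cells it rose to 29.7, 31.8 and 35.8 CPM on day 28 (0.81 ± 0.24, adjusted p 0.040, with a neighbour median of 0.34), without overlap. The call over time was lost without any 1 of the 6 MLL-AF4 libraries (adjusted p 0.055 to 0.19). That for AF4-MLL minus MLL-AF4 held only without replicate 2 of AF4-MLL (0.021, otherwise 0.076 to 0.33), and that for co-expression was lost without replicate 1 or 2 of MLL-AF4 or replicate 3 of co-expression on day 3 (0.10, 0.14 and 0.069). By DESeq2 none of the 3 was called (0.14 to 0.49). Among the higher levels per kb in the lists were those of EPOR, the erythropoietin receptor (19.7), CORO1A, a leukocyte actin regulator (14.2), CD7, a T-cell antigen (3.87), and CEBPE, a factor of granule formation (2.52). The first 3 of these were tested and not called in any comparison, and CEBPE did not pass the filter.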

How the data were processed

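The authors deposited whole-number read counts per gene for 54425 genes in 18 ATAC-seq libraries. The submitters' processing notes name bcl2fastq, Bowtie2, HTSeq and GRCh38. Tool versions, the counted region and duplicate handling are not given in the sources used here, and overlapping genes may share reads. Counts were fitted in R 4.3.3 with edgeR 4.0.16 (TMM, filterByExpr with minimum count 10 and minimum total 15, quasi-likelihood F test, 6 groups, no block). Contrasts numbered 12, adjusted by Benjamini-Hochberg over 17660 genes. SE is the log2 difference over the square root of F. DESeq2 1.42.0 was an alternative. Nuclear levels leave out 37 mitochondrial genes and 384 nuclear copies of them. Gene spans and promoters come from RefSeq (GRCh38.p14). The scripts were tested on simulated data. The members and lists were chosen with earlier results of these data known. Values in every library are printed for members called, with the smallest p in a contrast, with the 3 highest or lowest levels per kb, or with the most counts in a role. Alternatives covered normalisation, filters, DESeq2, a replicate block and each library left out. Replicate p-values measure the spread between these libraries, and their numbers were not shown to pair them.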

Additional observations from a re-analysis of the deposited data

Results flagged for a closer look

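ITGA2B, which encodes the platelet integrin chain CD41 and is one of the 65 further blood genes, was flagged because its change from day 3 to day 28 differed between AF4-MLL and MLL-AF4 cells. Its mean was 34.4 CPM on day 3 and 25.4 CPM on day 28 in AF4-MLL cells (log2 difference -0.53 ± 0.19, SE), and 18.3 and 32.4 CPM in MLL-AF4 cells (0.81 ± 0.24), with 3 libraries per group. The interaction was -1.33 ± 0.31 (adjusted p 0.016, edgeR quasi-likelihood test over all genes), beside -0.36 for the median of its 50 neighbours. It was called in 14 of 20 alternatives, with adjusted p from 0.0050 to 0.21. It was not called by DESeq2 (0.21) or when a library was left out that was replicate 1 or replicate 3 of AF4-MLL on day 3, replicate 2 of AF4-MLL on day 28, or replicate 1 or replicate 2 of MLL-AF4 on day 3 (0.058 to 0.11). No cause was tested.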

How the results depend on the processing

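With library size only in place of TMM, day 28 minus day 3 called 22 members lower with AF4-MLL, 19 with MLL-AF4 and 22 with co-expression. The median of all genes itself moved by -1.06, -0.87 and -1.07 there, and on day 3 by 0.13 for co-expression and 0.14 for AF4-MLL minus MLL-AF4, so changes were read relative to it. Interactions with MLL-AF4 cells moved by -0.19 (co-expression) and -0.17 (AF4-MLL), and with no filter the median in MLL-AF4 cells over time was 0.14 and that of the first of these interactions -0.11. With library size only ITGA2B turned to -0.071 in MLL-AF4 cells and CSF1R to -0.015 in co-expression cells. ZNF521 was not called with a loess offset, DESeq2 or no filter (0 members). LYL1 on day 3 was not called with library size only, mitochondrial genes and copies left out, a loess offset, DESeq2, no filter, a mean of at least 30 counts (where it was not tested) or a replicate block (0 members in each). PTPRC was not called by DESeq2 or with a mean of at least 30 counts, where it was not tested (0 members). The cause was not tested unless the lower number of genes tested shows it. Leaving out 1 library gave 0 called members in MLL-AF4 cells over time, 0 to 1 in co-expression cells over time, 0 to 1 for both comparisons with LYL1 and PTPRC, and 0 to 1 for the interaction of co-expression with MLL-AF4 cells, where LYL1 was called without replicate 2 of the co-expression cells of day 3 (3.00, adjusted p 0.044). The call in co-expression cells over time was that of CSF1R without replicate 2 of day 28. All other counts of called members were the same under every alternative run, while counts at an unadjusted p varied. The median percentile of the members per kb was 29.5 among all genes and 39.1 without length scaling. Summed exon length was not run. The 27 correlations between same-numbered libraries of different groups ran from -0.0517 to 0.0166, and 2 libraries correlated best with their own number, so the numbers were not taken as pairs. With the replicate block LYL1 had an adjusted p of 0.053 and ITGA2B, for AF4-MLL minus MLL-AF4 on day 3, of 0.062, ZNF521 and PTPRC were still called, and the other counts of called members did not change. Low counts limit all of this, since a member had a median of 12 counts per library.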
